A study of Mus musculus with 4 samples.

Results

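The CC chemokines that macrophages are known to secrete were followed on the 4 arrays of a study of proteasome inhibition in J774.1 cells, a mouse monocyte-macrophage cell line. The set holds 10 genes, *Ccl2*, *Ccl3*, *Ccl4*, *Ccl5*, *Ccl6*, *Ccl7*, *Ccl9*, *Ccl12*, *Ccl17* and *Ccl22*, out of 20144 genes that could be named on the arrays. The rule lists them by name and sets no measured value as a condition, but the list was drawn up with earlier results of these data known. Each gene was read by 1 probe, found through its transcript accession. The RNA came from cells kept for 4 hours with MG132, a proteasome inhibitor, with epoxomicin, which acts on the 20S proteasome, or with ONX0914, which acts on the β5 and β5i subunits, all at 1 μM, or with the solvent DMSO alone. The cells of all groups were of 1 line, carried no engineered allele in the labels, and had 1 array for each condition. The treatment label of one array reads ONX-0912, but ONX0914 is the compound in the treatment protocol and the paper, and that name is used here.

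Chemokines are small secreted proteins that draw white blood cells along a gradient through receptors on the target cell, and the CC family is named for a pair of neighboring cysteines. Macrophages make many of them, and they release them within hours of an inflammatory signal. CCL2, CCL7 and CCL12 act mainly on CCR2 and bring in monocytes. CCL3, CCL4 and CCL5 attract T cells and monocytes. CCL6 and CCL9 are made by mouse myeloid cells without stimulation and act on CCR1. CCL17 and CCL22 act on CCR4 and are made by dendritic cells and by macrophages that IL-4 has activated.

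Macrophage markers went with the label. All 8 macrophage markers with a probe, among them *Csf1r*, *Cd14* and *Itgam*, were well above background (a call of the scanner software) on every array, and their summed signal lay between 276576 (MG132) and 358425 (DMSO). None of the 4 B cell markers was above background on any array (summed signal 36.6 to 48.0). For the dendritic cell list only *Zbtb46*, of 5 markers, was above background, with a summed signal between 79.4 and 93.2. Of the 5 T cell markers, *Cd4* and *Cd3e* were above background on every array (summed signal 4486 to 5327) and *Cd3d*, *Cd3g* and *Cd8a* on none. Of 4 neutrophil markers with a probe, *Elane* and *S100a8* were above background and *S100a9* and *Mpo* were not (2249 to 2961), and of 4 fibroblast markers 2 were above background with DMSO and 1 with each inhibitor (102 to 146). The part of these signals in the chemokine differences was not tested. The share of spots well above background was 60.3% to 63.1% per array, no spot was saturated, and precision is limited by how few arrays there are. Without a second array for any condition, no difference below has a replicate check or a *P* value, and lower RNA per cell cannot be told apart from fewer cells that make it.

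Sequence just upstream of the gene start (GRCm38.p6, from RefSeq) was at hand for 6 of the 10 genes, *Ccl3*, *Ccl6*, *Ccl9*, *Ccl12*, *Ccl17* and *Ccl22*. It was also at hand for *Ccl8*, a neighbor of *Ccl12* that is described below. Shown are the 250 bases before the start of *Ccl12* and *Ccl8*, which both had higher signals with the inhibitors, of *Ccl3*, which did so to a lesser extent, and of *Ccl9*, which had lower signals. They are written 5′ to 3′ on the strand of the gene, and capitals mark the letters that matched one of the motifs searched.

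*Ccl12*, chr11:82101595-82101844, plus strand: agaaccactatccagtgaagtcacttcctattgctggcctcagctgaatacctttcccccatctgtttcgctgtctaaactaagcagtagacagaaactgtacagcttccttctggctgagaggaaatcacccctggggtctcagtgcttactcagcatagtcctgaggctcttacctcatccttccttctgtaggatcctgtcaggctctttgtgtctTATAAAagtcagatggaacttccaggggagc

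*Ccl8*, chr11:82114935-82115184, plus strand: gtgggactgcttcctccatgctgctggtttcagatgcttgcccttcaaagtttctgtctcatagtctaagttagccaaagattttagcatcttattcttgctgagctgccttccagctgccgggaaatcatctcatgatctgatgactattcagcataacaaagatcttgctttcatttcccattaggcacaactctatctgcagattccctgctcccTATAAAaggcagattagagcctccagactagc

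*Ccl3*, chr11:83649379-83649628, minus strand: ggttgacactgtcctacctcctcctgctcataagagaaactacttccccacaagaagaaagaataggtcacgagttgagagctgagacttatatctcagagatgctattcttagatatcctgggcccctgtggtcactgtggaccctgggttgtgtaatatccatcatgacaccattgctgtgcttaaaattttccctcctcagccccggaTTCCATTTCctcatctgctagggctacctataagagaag

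*Ccl9*, chr11:83578637-83578886, minus strand: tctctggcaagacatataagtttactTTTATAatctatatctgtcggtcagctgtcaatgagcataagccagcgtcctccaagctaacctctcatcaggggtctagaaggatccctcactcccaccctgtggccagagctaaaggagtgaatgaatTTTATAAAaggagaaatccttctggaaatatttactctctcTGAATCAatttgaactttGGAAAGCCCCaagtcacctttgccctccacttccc

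The motifs were looked for on both strands from 250 bases before to 50 bases after the start. They were the NF-kB consensus, the core of the interferon response element (GAAANNGAA) and the AP-1 site (TGANTCA). The TATA box (TATAAA) was added after the sequences had been seen. *Ccl9* held an NF-kB match on the other strand, 35 bases before the start, and an AP-1 match at 53 bases. It also held TATA matches at 224 and 94 bases on the other strand and at 92 bases on its own strand, of which the last pair overlapped. *Ccl3* held 1 match to the interferon response element core, on the other strand, 39 bases before the start. *Ccl12* and *Ccl8* held a TATA match each, 31 and 32 bases before the start, and no match to the other motifs. In *Ccl6*, *Ccl17* and *Ccl22* none of the motifs was found. Among all 32851 promoters of this length, 8.46% held the NF-kB consensus, 8.56% the interferon response element core, 7.81% the AP-1 site and 13.6% the TATA box. Aligned end to end, the *Ccl12* and *Ccl8* stretches were 57.5% identical, and the other 20 pairs among the 7 sequences were 47.2% to 54.2% identical. A match is a run of letters, and no binding was measured.

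*Ccl7* and *Ccl12* had clearly higher signals on the inhibitor arrays, *Ccl2*, *Ccl3* and *Ccl4* had somewhat higher ones, *Ccl5* was nearly level, and *Ccl6* and *Ccl9* had lower ones. These 8 genes were well above background on all arrays. *Ccl17* was so on the DMSO array alone and *Ccl22* on none. To compare arrays, log2 signals were set relative to their array's 75th percentile, and a 2-fold distance from DMSO was the mark for calling a gene higher or lower. By that count 3 genes of the set (*Ccl7*, *Ccl12*, *Ccl3*) were higher with MG132, 2 (*Ccl7*, *Ccl12*) with epoxomicin and 1 (*Ccl7*) with ONX0914, among 8 that could be compared, and none was lower with any inhibitor. Of all genes compared, 7.24% were at least 2-fold higher and 3.65% lower with MG132. The shares were 8.41% and 4.49% with epoxomicin, and 3.27% and 1.41% with ONX0914. The MG132 split depended on the scaling, with 5.32% higher and 6.5% lower when no scaling was applied and 6.06% and 5.01% when arrays were shifted to their median. The median difference of the 8 genes was 0.63 (log2) for MG132, 0.66 for epoxomicin and 0.31 for ONX0914, whereas the medians of all genes compared were −0.02, −0.04 and −0.01. All of these comparisons use the same DMSO array, so its chance values enter each of them.

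**Figure D1:**
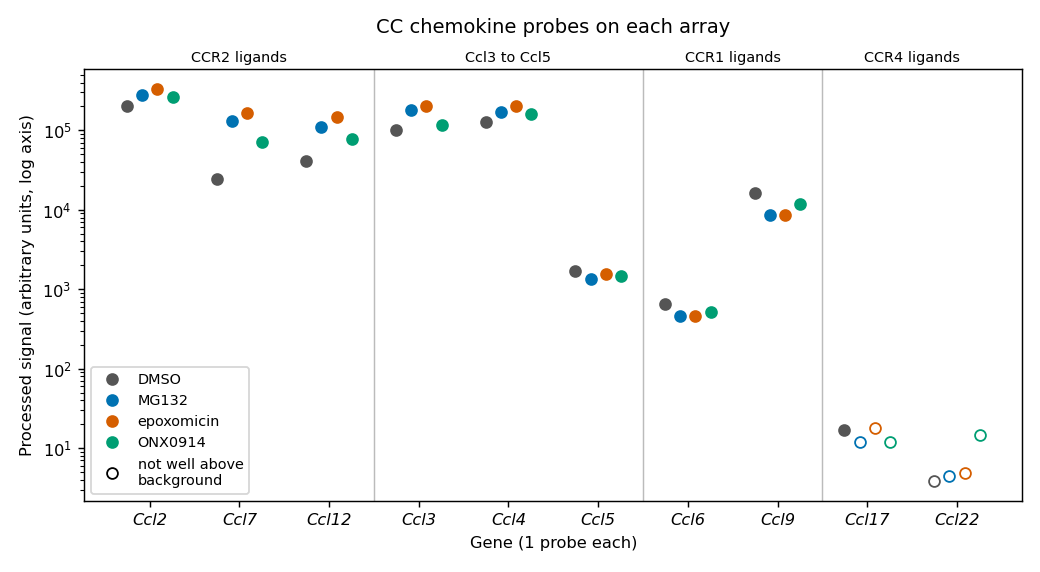
Processed signal (log axis, arbitrary units) of the 10 CC chemokine probes on the DMSO, MG132, epoxomicin and ONX0914 arrays, in groups of related chemokines, with 1 point per array and open points where the probe was not well above background. Points are to be compared within a gene: *Ccl7* went from 24160 with DMSO to 165713 with epoxomicin, and *Ccl22* stayed below 15 on every array, with 14.6 as its highest signal.

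Among the CCR2 ligands, *Ccl7*, a monocyte chemoattractant, differed most from DMSO. Its signal was 24160 with DMSO, 132569 under MG132, 165713 under epoxomicin and 71929 under ONX0914. All inhibitor arrays lay above the DMSO array, with ONX0914 lowest among them. After scaling, *Ccl7* exceeded DMSO 6.25-fold under MG132, 6.74-fold under epoxomicin and 3.05-fold under ONX0914, that is, 2.64, 2.75 and 1.61 on the log2 scale. The scanner software gives each *Ccl7* signal an error of 10.0%, which comes to 0.20 on the log2 scale for a difference of 2 arrays. It is a figure of the software, not a spread between spots or cultures. For *Ccl17* and *Ccl22*, the faint genes of the set, it was 20.6% to 99.6%. Ranked from the largest increase, *Ccl7* stood at 137 of 13768 genes with MG132, at 170 of 13869 with epoxomicin and at 196 of 13792 with ONX0914.

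*Ccl12*, which encodes a second monocyte chemoattractant found in mice, had a signal of 41448 with DMSO, 111534 under MG132, 148406 under epoxomicin and 78722 under ONX0914. The order of the arrays was the same as for *Ccl7*. It was 3.06-fold higher with MG132 and 3.52-fold higher with epoxomicin. With ONX0914 it was 1.95-fold higher (0.96 on the log2 scale), just short of the 2-fold mark.

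*Ccl2*, the best known chemoattractant of monocytes, was printed 10 times on each array, so its spread between spots can be given. The mean signal was 203783 with DMSO, 279650 under MG132, 333029 under epoxomicin and 264043 under ONX0914. On the scaled log2 axis the spots of the DMSO array averaged 6.94 ± 0.04 (SD, 10 spots), against 7.59 ± 0.06 with MG132, 7.63 ± 0.06 with epoxomicin and 7.36 ± 0.05 with ONX0914. Every spot of each inhibitor array lay above all 10 spots of the DMSO array. The differences were 0.64, 0.68 and 0.41, or 1.56-fold, 1.61-fold and 1.33-fold, so *Ccl2* was not counted as higher. The spots of an array share 1 RNA sample, and their spread leaves out that between cultures. *Ccl2* spots were bright before correction, reaching 45.7% of the saturation value of the scanner on the epoxomicin array and 30.4% on the DMSO array.

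**Figure D2:**
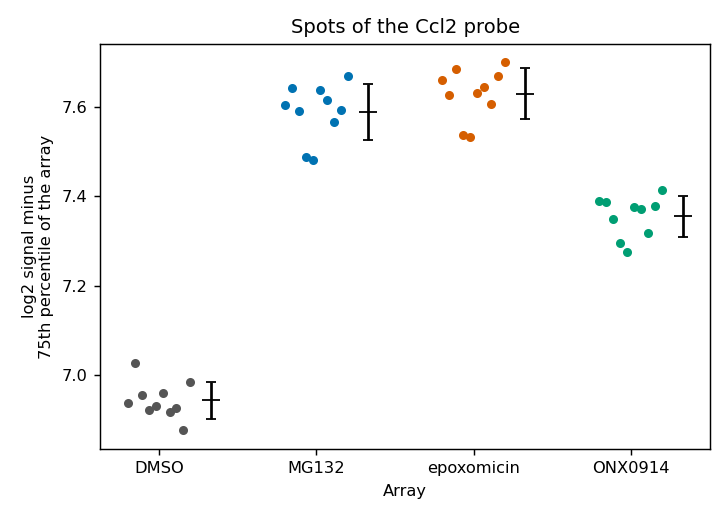
Scaled log2 signal of the 10 spots of the *Ccl2* probe on each array (points), with the mean and SD over spots beside them (black). The axis does not start at 0. The DMSO spots reach 7.03 at most, and the lowest inhibitor spot, on the ONX0914 array, is at 7.27.

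*Ccl3*, *Ccl4* and *Ccl5*, whose products attract T cells and monocytes, were closer to DMSO. *Ccl3*, which encodes a macrophage inflammatory protein, had a signal of 100514 with DMSO, 179293 under MG132, 203327 under epoxomicin and 116018 under ONX0914. MG132 and epoxomicin stood well apart from DMSO, and ONX0914 was near it. *Ccl3* lay on the 2-fold mark, at 2.03-fold with MG132 (1.02 on the log2 scale) and 1.99-fold with epoxomicin (0.99), and at 1.18-fold with ONX0914 (0.24). Of 7 alternative settings that could alter these values, the MG132 value passed 2-fold in 2 (range 0.83 to 1.20) and the epoxomicin value in 4 (0.92 to 1.22), so the count for *Ccl3* depends on the setting.

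*Ccl4*, which encodes a close relative of CCL3, had a signal of 127935 with DMSO, 172204 under MG132, 203013 under epoxomicin and 161420 under ONX0914. Its scaled differences of 0.62, 0.64 and 0.37 on the log2 scale were close to those of *Ccl2*. *Ccl3* and *Ccl4* are neighbors whose spans overlap in the RefSeq annotation, and whether a probe of one also reads transcripts of the other was not tested.

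*Ccl5*, which attracts T cells and is well known as a gene of the antiviral response, had a signal of 1702 with DMSO, 1330 under MG132, 1551 under epoxomicin and 1467 under ONX0914. The scaled differences were −0.17, −0.16 and −0.18 on the log2 scale, each smaller than the software's error figure of 0.20, which is not a detection limit.

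*Ccl9* and *Ccl6*, the genes grouped here as CCR1 ligands, stood on the other side of DMSO. The group does not take in every ligand of that receptor. *Ccl9*, whose product attracts myeloid cells, had a signal of 16276 with DMSO, 8554 under MG132, 8680 under epoxomicin and 11999 under ONX0914. It was 1.67-fold lower with MG132, 1.91-fold lower with epoxomicin and 1.32-fold lower with ONX0914, with log2 differences of −0.74, −0.93 and −0.40. Among the same 7 settings the epoxomicin value passed 2-fold in 1, the shift to the median. *Ccl6* had a signal of 659 with DMSO, 467 under MG132, 461 under epoxomicin and 515 under ONX0914. Its differences of −0.31, −0.54 and −0.32 were smaller than those of *Ccl9*. All were larger than the software's error figure, which was 0.20 here as well and leaves out the spread between cultures. Of the genes compared, 3669 of 13768 stood lower than *Ccl6* with MG132, 2262 of 13869 with epoxomicin and 2132 of 13792 with ONX0914. Below *Ccl9* stood 1137, 757 and 1535 genes in the same order.

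**Figure D3:**
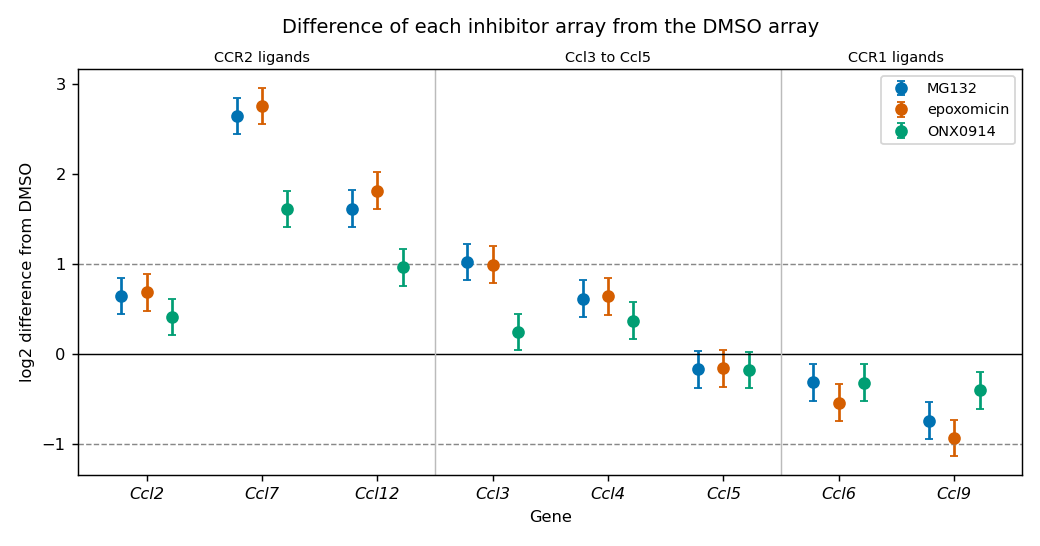
Log2 difference of the MG132, epoxomicin and ONX0914 arrays from the DMSO array for the 8 genes well above background on all arrays. Bars give the error figure of the scanner software (0.20), not a spread between spots or cultures, and dashed lines mark a 2-fold difference. *Ccl7* lies past the upper line with every inhibitor, *Ccl5* lies within its bar of 0 for MG132, epoxomicin and ONX0914, and *Ccl9* approaches the lower line with epoxomicin (−0.93).

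The CCR4 ligands were at the limit of detection. *Ccl17* had a signal of 17 with DMSO, where the software called it well above background, and 12 with MG132, 18.1 with epoxomicin and 11.8 with ONX0914, where it did not. Among probes well above background, the faintest gave 14.7 with DMSO and 17.8 to 20.3 under the inhibitors, so no fold can be given. *Ccl22* had signals of 3.84 with DMSO, 4.48 under MG132, 4.93 under epoxomicin and 14.6 under ONX0914, none of them well above background. By the weaker of the software's calls, a positive and significant signal, *Ccl17* was detected on every array and *Ccl22* on the ONX0914 array alone. A difference in either gene was not detectable at these signals.

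The 3 inhibitors were given at the same dose and for the same time. An equal dose need not mean equal inhibition, and the proteasome activity left under each inhibitor is not part of these data. Between epoxomicin and MG132 the 8 genes differed by −0.23 (*Ccl6*) to 0.20 (*Ccl12*) on the log2 scale. With ONX0914, 7 of 8 genes had a lower scaled signal than with MG132, though *Ccl5* and *Ccl6* by −0.01 only, and *Ccl9*, the exception, was higher by 0.34. *Ccl7* was 2.04-fold lower with ONX0914 than with MG132 and 2.21-fold lower than with epoxomicin. *Ccl3* was 1.71-fold and 1.68-fold lower in the same order, and *Ccl12* 1.57-fold and 1.81-fold lower. The difference from DMSO was smallest with ONX0914 for 6 of the 8 genes, the exceptions being *Ccl5* and *Ccl6*. How many of all genes had the same order of arrays was not counted. Of all genes compared, 3.27% were at least 2-fold higher and 1.41% lower with ONX0914. These shares were smaller than with MG132 (7.24% and 3.65%) and epoxomicin (8.41% and 4.49%), so a smaller ONX0914 difference was not particular to this set. For *Ccl7*, *Ccl12*, *Ccl2* and *Ccl4* the ONX0914 difference amounted to between 59.6% and 63.8% of the MG132 difference on the log2 scale, and for *Ccl3* to 23.9%. With 1 array each, no interval can be given for a difference between inhibitors.

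The 8 genes lie in a pair of clusters on chromosome 11. In RefSeq order the first cluster reads *Ccl2*, *Ccl7*, *Ccl11*, *Ccl12*, *Ccl8* and *Ccl1*, and the second, 25 coding genes further on, reads *Ccl5*, *Ccl9*, *Ccl6*, *Ccl3* and *Ccl4*. *Ccl8* of the first cluster is not in the set. It encodes a further CC chemokine, and its signal was 257 with DMSO, 2460 under MG132, 3428 under epoxomicin and 1434 under ONX0914. It was thus 10.9-fold, 13.1-fold and 5.72-fold higher, and the order of the arrays was that of *Ccl7* and *Ccl12*. *Ccl11*, which lies between *Ccl7* and *Ccl12* and attracts eosinophils, had signals of 2.98 to 4.10, and *Ccl1*, at the end of the cluster, had signals of 3.28 to 4.43. Neither was well above background on any array. In the second cluster *Ccl9* and *Ccl6*, with lower signals, lie next to *Ccl3* and *Ccl4*, with higher ones. *Ccl22* and *Ccl17* lie on chromosome 8 with 1 coding gene between them.

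**Figure D4:**
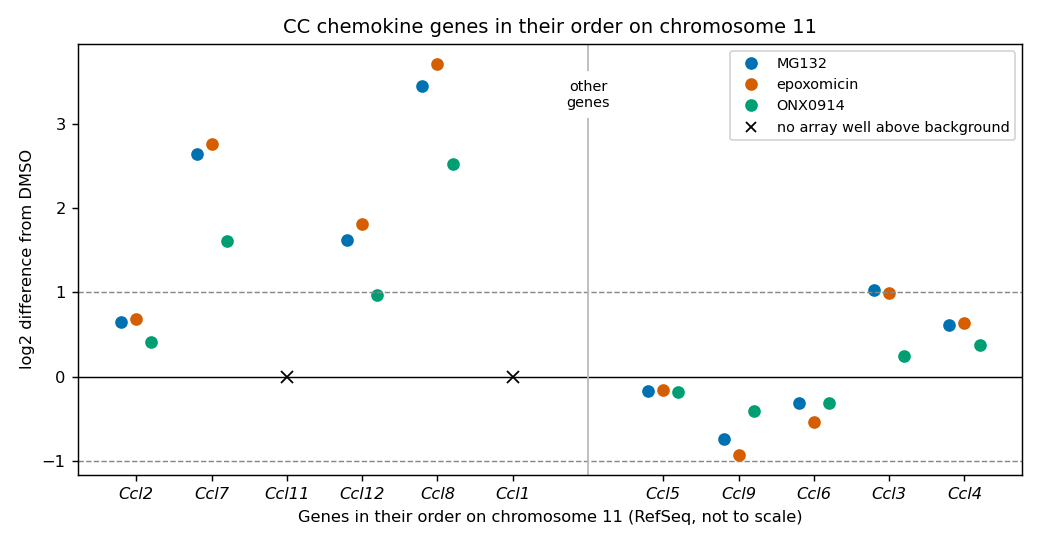
Log2 difference from DMSO for the CC chemokine genes of chromosome 11, placed in their RefSeq order from left to right and not to scale. Crosses mark genes well above background on no array, and dashed lines mark 2-fold. The measured genes of the left cluster lie above 0 with every inhibitor, from 0.41 (*Ccl2*, ONX0914) to 3.71 (*Ccl8*, epoxomicin), and the right cluster holds values on both sides.

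Of the 12 other CC ligand genes looked at, 10 had a probe. With MG132, 4 of them could be compared, and with epoxomicin and ONX0914, 5. *Ccl8* was the 1 gene at least 2-fold higher with each inhibitor, where 7.24%, 8.41% and 3.27% of all genes compared were higher. With epoxomicin 1 gene of this list, *Ccl24*, was lower, against 4.49% of all genes. *Ccl24*, an eosinophil attractant that IL-4 induces in macrophages, had signals of 566 with DMSO, 266 under MG132, 282 under epoxomicin and 438 under ONX0914, and was 2.04-fold lower with epoxomicin and 1.87-fold lower with MG132. The medians of this list were −0.07, 0.09 and −0.02, against −0.02, −0.04 and −0.01 over all genes compared.

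Receptors for CC ligands were measured as well. Of 12 receptor genes 10 could be compared, and 3 were at least 2-fold higher with MG132 and with epoxomicin and none with ONX0914, where the shares over all genes were 7.24%, 8.41% and 3.27%. With epoxomicin 1 receptor gene, *Ccr1*, was lower, against 4.49% of all genes. *Ccr2*, the receptor of the CCL2, CCL7 and CCL12 proteins, had signals of 247 with DMSO, 551 under MG132, 805 under epoxomicin and 273 under ONX0914, with log2 differences of 1.34, 1.68 and 0.18. *Ccrl2*, which binds chemoattractants without classical signaling, differed by 1.59, 2.03 and 0.77. *Ackr2*, a scavenging receptor of CC chemokines, was 2.14-fold and 2.51-fold higher with MG132 and epoxomicin, from a faint DMSO signal of 24.9, and was not well above background with ONX0914. *Ccr1*, the receptor of CCL6 and CCL9, had a signal of 43.9 with DMSO and was not well above background under any inhibitor. Taking its dim signals (20.0, 21.2 and 21.6) as read, it was 1.93-fold lower with MG132, 2.11-fold with epoxomicin and 1.98-fold with ONX0914. These signals lay above the faintest that passed the call on their arrays (17.8, 20.3 and 19.3), so the folds are not lower limits. The medians of the receptor list were 0.22, 0.56 and −0.04, and those of all genes were −0.02, −0.04 and −0.01.

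To find genes with a like pattern, the 4-array profiles of 12730 genes well above background on all arrays were each centered on their own mean, and the distance to a profile was taken on the log2 scale. The profiles nearest to *Ccl7*, the gene of the set with the highest mean difference, were those of *Glipr1l1* (distance 0.06), *Tmem140* (0.08) and *Parp14* (0.10), and *Ccl12* ranked 183 at 0.81. Nearest to *Ccl9*, the gene with the lowest mean difference, were *Tmem186*, *Lage3* and *Pilra*, each at a distance of 0.03, and *Ccl6* ranked 2022 at 0.37. These distances rest on 4 arrays and describe them.

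**Figure D5:**
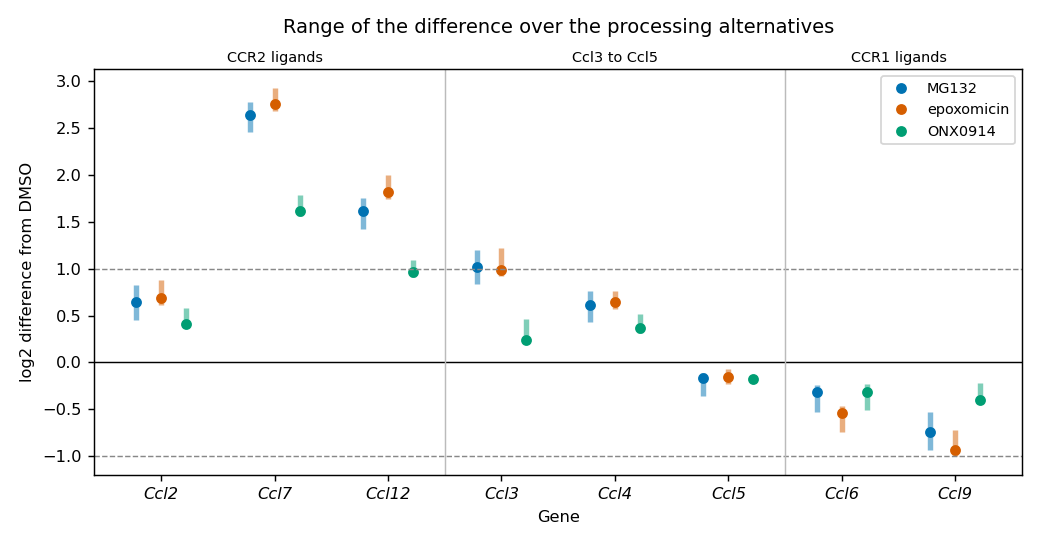
Log2 difference from DMSO for the 8 measured genes as reported (points) and its range over the alternative settings of background correction, scaling and value source (bars), with dashed lines at 2-fold. No bar crosses 0. Bars for *Ccl3* cross the upper dashed line with MG132 and epoxomicin, the ONX0914 bar of *Ccl12* does so too, and the epoxomicin bar of *Ccl9* reaches the lower line.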

How the data were processed

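RNA of J774.1 cells was hybridized to 4 single-color arrays on 1 slide, 1 for each condition. A human design is named in the Methods, but the file headers describe a mouse design on build mm9. Probes were therefore named through the transcript accessions in the RefSeq table of GRCm38.p6 (26581 of 39429 probes, 20144 genes), and file coordinates were not used. The authors deposited the intensity of every spot from Feature Extraction 10.7.1.1, background-subtracted within the array and not scaled between arrays, with the median intensity before correction and other calls of 0 or 1 per spot. They also deposited 39483 log2 values from GeneSpring, whose settings are not given in the sources used here. These values match, with Pearson's r of 0.9997 or more across probes, signals scaled as below and centered on each probe's median (column medians −0.05, 0.02, −0.02 and 0.01).

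Control spots and 159 to 194 outlier spots per array were left out, the 75th percentile of log2 signals (1453 to 1683 as a signal) was subtracted, and spots of a probe were averaged. For genes with several probes, the probe of highest mean was taken. A gene was compared when either array of a pair had it well above background. A dim signal was replaced by a bound, the higher of itself and the faintest signal that passed this call on its array, and no fold was given where it came out under 1. No test was made with 1 array per condition.

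The members and gene lists were chosen with earlier results of these data known. Named are the 10 members, list genes at least 2-fold from DMSO with 2 or more inhibitors, and the 3 nearest profiles of 2 members. *Ccl1*, *Ccl11*, *Ccl24*, *Ccr1*, *Nfkbia*, *Nfkbie*, *Mgl2*, *Chil3*, *Clec10a*, *Il4ra*, *Arg1*, *Retnla*, *Mrc1* and *Irf4* were added after their values were seen. A further receptor gene is not reported here. Calculations were tested on simulated data. Versions were Python 3.11.15, numpy 2.4.6, pandas 2.3.3, matplotlib 3.10.9, R 4.3.3 and limma 3.58.1 (normexp, offset 50).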

Additional observations from a re-analysis of the deposited data

How the results depend on the processing

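All 24 differences of the 8 measured genes kept their sign under the 7 alternative settings that could alter them. The other 3 (the mean over probes, the signal in place of a bound, and a filter on dim genes) leave genes with 1 probe and bright on all arrays as they are. Of the 168 values recomputed under the 7, 129 moved by less than 0.0867 on the log2 scale (the largest median SD between spots times the square root of 2) and 39 by more, 21 of these with normexp background correction, 8 without scaling and 8 after a shift to the median. With normexp, 2 genes (*Ccl7*, *Ccl12*) were higher with ONX0914 in place of 1, against 1.41% of all genes. Also with normexp, 1 gene (*Ccl17*, as a bound) was lower with MG132, epoxomicin and ONX0914 in place of 0. In that setting 18.2%, 21.8% and 19.5% of all genes were lower, and when outlier spots were left out of the fit the shares were 2.09%, 2.74% and 0.54% and *Ccl17* was not counted. Shifting to the median made 1 gene (*Ccl9*) lower with epoxomicin, against 5.46% of all genes. At a 1.5-fold threshold, 5 genes were higher with MG132 and 5 with epoxomicin (*Ccl2*, *Ccl3*, *Ccl4*, *Ccl7*, *Ccl12*), 2 with ONX0914, and 1 gene (*Ccl9*) was lower with MG132 and 1 with epoxomicin. Of all genes, 14.9%, 16.4% and 7.59% were then higher and 12.9%, 14.5% and 5.21% lower with MG132, epoxomicin and ONX0914. At 4-fold, *Ccl7* was the 1 gene higher with MG132 and the 1 gene higher with epoxomicin, and 0 genes were higher with ONX0914, against 1.96%, 2.42% and 0.827% of all genes. The median of all genes stood at −0.20 for MG132 without scaling, at −0.12 for MG132 and −0.11 for epoxomicin after a shift to the median, and at −0.27, −0.30 and −0.16 under normexp. The cause of these changes was not tested beyond what the settings themselves alter. No paired analysis was possible because each condition has 1 array, and for the same reason no array could be left out. Signals of *Ccl17* and *Ccl22* near the background leave changes in them undetectable.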

Other observations

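Regulators that NF-kB induces were listed because NF-kB drives several of these chemokine genes. All 12 could be compared, and 1 was at least 2-fold higher with MG132 and with epoxomicin and 0 with ONX0914, and 1 was lower with epoxomicin. Over all genes compared, 7.24%, 8.41% and 3.27% were higher with MG132, epoxomicin and ONX0914, and 4.49% were lower with epoxomicin. The counts of this list were thus near those shares. Of these, *Bcl3*, a nuclear partner of NF-kB, was at least 2-fold higher with MG132 (1.08 on the log2 scale) and epoxomicin (1.06), with 0.92 for ONX0914. *Nfkbie*, an inhibitor of NF-kB, was at least 2-fold lower with epoxomicin (−1.01). *Nfkbia*, the inhibitor that the proteasome degrades, had signals of 23454 with DMSO, 22107 under MG132, 18174 under epoxomicin and 31677 under ONX0914, and after scaling differed by 0.10, −0.39 and 0.47 in this order, so that its MG132 value lay below DMSO before scaling and above it after. The medians of the list were 0.45, 0.16 and 0.23 for MG132, epoxomicin and ONX0914, against −0.02, −0.04 and −0.01 over all genes compared.

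Genes of alternative activation, the IL-4 state in which CCL17 and CCL22 are made, were listed beside those ligands. *Arg1*, *Retnla*, *Mrc1* and *Irf4* were well above background on no array, and 6 of 10 genes could be compared, with medians of 0.69, 0.49 and 0.27. Of these, 2 were at least 2-fold higher with MG132 and epoxomicin and 1 with ONX0914, where 7.24%, 8.41% and 3.27% of all genes were. *Cish*, a feedback inhibitor of cytokine signaling, had signals of 714 with DMSO, 9025 under MG132, 12880 under epoxomicin and 5371 under ONX0914, which is 14.4-fold, 17.7-fold and 7.72-fold higher. *Socs2*, of the same family, differed by 1.88, 2.23 and 0.62 on the log2 scale from a faint DMSO signal of 20.9. The other genes compared stayed under 2-fold with every inhibitor. *Chil3* (5102 with DMSO) differed by 0.13, 0.36 and 0.18, *Clec10a* (21525) by 0.78, 0.61 and 0.19, and *Il4ra*, the IL-4 receptor, by 0.60, 0.28 and 0.35 from a faint signal of 32.5. *Mgl2*, with a signal of 100429 with DMSO, differed by 0.13, 0.05 and −0.01, and its MG132 signal before scaling (96752) was below that with DMSO, as was that of *Chil3* (4919).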
